A study of Homo sapiens with 4 samples.

Results

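The ADAMTS genes encode secreted metalloproteases with thrombospondin repeats, and 10 of them (ADAMTS1, 2, 4, 5, 6, 9, 10, 12, 14 and 16) were examined here among the 19970 protein-coding genes of chromosomes 1 to 22 and X. Their chromatin was read from peak lists of H3K27 acetylation (H3K27ac), a histone mark of active promoters and enhancers, obtained by chromatin immunoprecipitation and sequencing. There were 4 libraries, with 2 replicates each of MDA-MB-231 and Hs578T, established human triple-negative breast cancer cell lines with mesenchymal features. Per the labels, both lines had received the cytokine TWEAK at 10 ng/ml for 48 h and had then been kept without it for 72 h, whereas the study's text gives a longer wash-off. All groups shared this treatment, so no effect of TWEAK was measured here.

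For each gene, peaks were collected within 1 kb of the start site of its canonical transcript (its promoter) and within the gene body with 50 kb either side (its window). The 10 genes were chosen by name with these data in view, and ADAMTS12 was selected on its covered bases, because the largest group of neighbouring distal peaks in the large MDA-MB-231 list, by bases covered, lies inside it. The values of the 10 genes are therefore descriptions, and no test was made on them. With 4 libraries in 2 lines only 3 splits exist, so an exact two-sided permutation test could not have given a p-value below 0.333.

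ADAMTS proteases are made as inactive precursors, cut by furin-like convertases, secreted, and held at the cell surface or in the extracellular matrix. Some cleave the large proteoglycans aggrecan and versican, some trim the ends of fibrillar procollagens, and others act on cartilage oligomeric matrix protein, fibrillin or fibronectin. Tissue inhibitors of metalloproteinases, TIMP3 above all, restrain several of them, and in tumours the family is known for remodelling the matrix through which cells move.

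The lists differed in size before any gene was considered. The MDA-MB-231 replicate 1 list held 209 peaks, whereas the other list of that line held 43353 and the Hs578T lists 46330 and 44920. They covered 0.113, 81.8, 90.7 and 83.9 Mb. MDA-MB-231 replicate 1 had no peak in any of the 10 windows, so every zero it contributes was read together with its size, and a mean over the MDA-MB-231 lists describes neither of them. The remaining MDA-MB-231 list shared nearly as much with the Hs578T lists (Jaccard index, the shared bases divided by the bases covered in either, 0.770 and 0.759) as these shared with each other (0.780). The line of each list was taken from its label, and directions between lines below are those of the labelled lists. These values do not show whether the label of MDA-MB-231 replicate 2 is right, a mislabelled library was not tested, and each difference between lines given below holds only if the labels do. Promoters of the mesenchymal genes VIM, AXL, CD44, ZEB1 and SNAI2 carried a peak in all 3 large lists (5 of 5). None of 6 luminal or epithelial genes (ESR1, PGR, GATA3, FOXA1, ESRP1, CDH1) did. Of 4 markers of other cell types, PTPRC, CDH5 and ALB had no promoter peak, and PECAM1 had one in MDA-MB-231 replicate 2 and Hs578T replicate 1. Numbers of reads were not used here, so the depth is unknown.

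Promoter acetylation was found at 2 of the 10 genes, ADAMTS6 and ADAMTS12, in each of the 3 large lists. Among all protein-coding genes a promoter peak was called at 58.1% in MDA-MB-231 replicate 2, 58.2% in Hs578T replicate 1 and 56.4% in Hs578T replicate 2, and at 0.0601% in MDA-MB-231 replicate 1, where 0 of the 10 genes had one. Both peaks overlapped the start site itself, at a distance of 0 bp. The windows were less bare. In each large list 7 of 10 held at least 1 peak, beside 86.9%, 87.1% and 87.0% of all genes. MDA-MB-231 replicate 1 marked 1.61% of all genes by this measure. The windows of ADAMTS4, 9, 10, 14 and 16 were covered in all 3 large lists without a promoter peak in any, a state found at 26.9% of all genes. The windows of ADAMTS1, ADAMTS2 and ADAMTS5 held no peak in any list, which was so for 11.8% of all genes.

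The windows, merged where they overlap, span 2.46 Mb. Peaks covered 136996 bp of them in MDA-MB-231 replicate 2, with 60 peaks, 136898 bp in Hs578T replicate 1, with 59, and 135752 bp in Hs578T replicate 2, with 56. The totals were thus within 1244 bp of each other, or 5.58%, 5.58% and 5.53% of the sequence. They were unevenly divided. ADAMTS12 alone held 50.9%, 55.0% and 55.8% of the covered bases, and ADAMTS12 with ADAMTS16 held 74.4%, 73.6% and 72.3%. The median gene of the 10 had 5133.5, 6137.5 and 5455 bp covered, compared with 5815.5, 6373 and 5815.5 bp over all genes. As a share of the window the medians were 2.16%, 1.91% and 2.01% for the 10 genes and 3.78%, 4.17% and 3.82% over all genes.

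**Figure D1:**
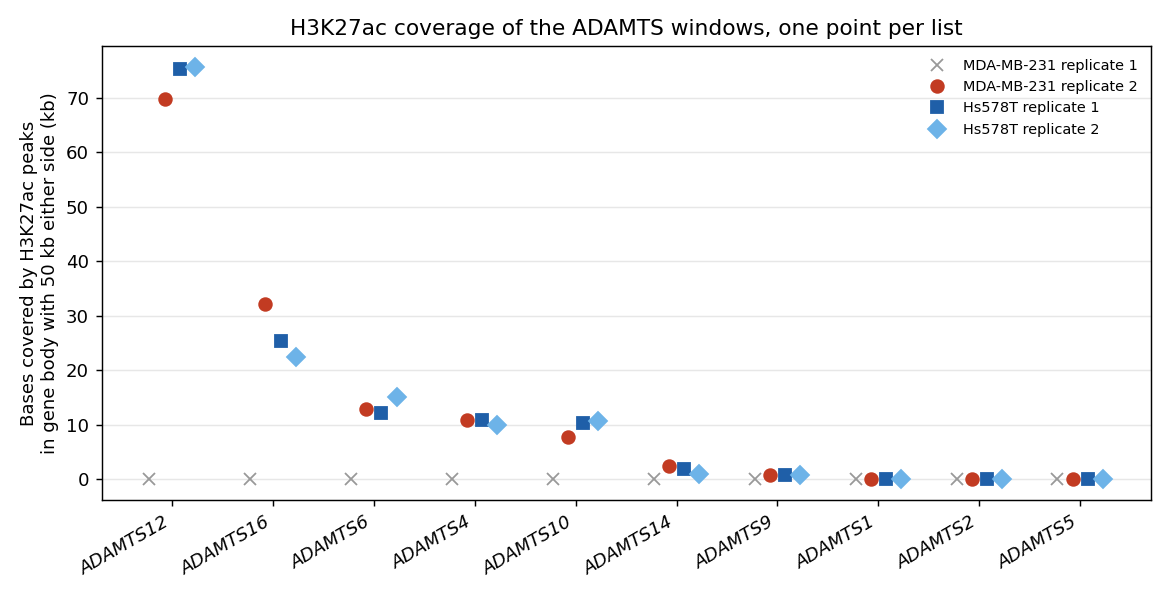
Bases covered by H3K27ac peaks (kb) in the gene body with 50 kb either side of each of the 10 ADAMTS genes, with 1 point per list and genes ordered by their mean over the 3 large lists. ADAMTS12 stands at 69703 to 75715 bp in the large lists, ADAMTS16 at 22485 to 32182 bp, 3 genes have no peak, and all points of MDA-MB-231 replicate 1 lie at 0.

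ADAMTS12, a protease with a mucin-like module that cleaves cartilage oligomeric matrix protein, lies on the minus strand of chromosome 5 at chr5:33523535-33892019 (hg38; identifier ENSG00000151388, 24 exons). Its window had 69703 bp covered in MDA-MB-231 replicate 2, 75277 bp in Hs578T replicate 1 and 75715 bp in Hs578T replicate 2, each in 19 peaks. The MDA-MB-231 value lay 5793 bp below the Hs578T mean of 75496 ± 310 bp (SD, n = 2), and the Hs578T replicates were 438 bp apart. By covered bases the window ranked 35, 36 and 28 of 19970 genes. The share of the window covered was 14.9%, 16.1% and 16.2%, and by this share it ranked 1746, 1821 and 1416.

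The promoter peak of ADAMTS12 was wide and strong in all 3 large lists. It spanned 6757 bp in MDA-MB-231 replicate 2, 6417 bp in Hs578T replicate 1 and 6688 bp in Hs578T replicate 2. Fold enrichment, the peak caller's ratio over local background, was 16.0, 15.9 and 14.1, or percentiles 90.9, 92.0 and 92.9 of all peaks of the same list. ADAMTS6 was the other gene marked at its start, and its peak was of another kind. The widths were 2128, 1929 and 1823 bp and the fold enrichments 4.01, 4.16 and 4.24, at percentiles 30.3, 38.8 and 41.2.

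Both marked promoters can be set beside unmarked ones. RefSeq promoter windows (GRCh38.p14, 300 bases around the start) were matched for 5 of the 10 genes, namely ADAMTS2, 6, 10, 12 and 14, with 2 windows for ADAMTS10. They are printed for the 2 marked genes and for 2 unmarked ones because the unmarked ones are the richer in CpG. Only the bases upstream of every annotated exon are given, each on its gene's strand, 5′ to 3′, with CpG dinucleotides in capitals. The positions are chr5:33892020-33892240 (minus strand) for ADAMTS12, chr5:65481921-65482170 (minus) for ADAMTS6, chr5:179345462-179345711 (minus) for ADAMTS2 and chr10:70672256-70672505 (plus) for ADAMTS14.
ADAMTS12: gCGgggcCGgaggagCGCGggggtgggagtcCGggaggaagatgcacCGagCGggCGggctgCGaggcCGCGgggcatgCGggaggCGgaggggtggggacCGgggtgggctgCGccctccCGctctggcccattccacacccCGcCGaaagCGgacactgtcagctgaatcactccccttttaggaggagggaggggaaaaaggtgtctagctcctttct
ADAMTS6: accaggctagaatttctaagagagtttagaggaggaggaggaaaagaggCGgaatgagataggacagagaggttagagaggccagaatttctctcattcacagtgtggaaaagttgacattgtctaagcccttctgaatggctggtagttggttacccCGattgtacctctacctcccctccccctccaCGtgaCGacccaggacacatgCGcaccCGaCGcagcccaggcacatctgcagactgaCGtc
ADAMTS2: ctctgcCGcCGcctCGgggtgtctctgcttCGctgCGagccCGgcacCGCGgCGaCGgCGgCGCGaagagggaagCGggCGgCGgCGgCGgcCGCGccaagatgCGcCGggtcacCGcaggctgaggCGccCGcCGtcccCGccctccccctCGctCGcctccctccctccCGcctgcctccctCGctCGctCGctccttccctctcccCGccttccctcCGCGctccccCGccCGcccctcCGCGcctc
ADAMTS14: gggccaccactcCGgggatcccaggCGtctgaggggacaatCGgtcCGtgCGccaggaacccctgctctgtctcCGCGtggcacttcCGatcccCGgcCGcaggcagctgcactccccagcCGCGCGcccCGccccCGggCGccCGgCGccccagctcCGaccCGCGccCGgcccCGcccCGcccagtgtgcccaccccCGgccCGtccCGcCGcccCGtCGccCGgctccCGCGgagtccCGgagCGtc
The printed stretch of ADAMTS12 holds 19 CpG, that of ADAMTS6 holds 8, and those of the unmarked ADAMTS2 and ADAMTS14 hold 40 and 35. Over the whole 300-base windows, GC content was 67.0% for ADAMTS12 and 52.0% for ADAMTS6, beside 80.3% for ADAMTS2, 79.7% for ADAMTS14, 79.3% and 63.7% for the ADAMTS10 windows, and a median of 62.3% over 21548 protein-coding windows. At ADAMTS6, 22.8% of those windows had lower GC content, and at ADAMTS2, 97.0% had. The letters TGACTCA (or TGAGTCA, its reverse complement), the core bound by AP-1, were in none of the 6 windows and in 4.92% of 34961 windows of all kinds. The letters GGAATG on either strand, the core bound by TEAD factors, were found once each at ADAMTS6 and ADAMTS12, and in 14.0% of all windows.

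Most of the acetylation of ADAMTS12 lay inside the gene, in its longest intron. Intron 2 spans 129570 bp, and peaks covered 42.3% of it in MDA-MB-231 replicate 2 (13 peaks), 45.1% in Hs578T replicate 1 (11 peaks) and 46.1% in Hs578T replicate 2 (12 peaks). This was 78.7%, 77.7% and 78.8% of everything covered in the window. Joined at the default distance of the super-enhancer caller ROSE, the intron 2 peaks formed a single cluster in each list, at chr5:33761156-33860082, chr5:33761066-33860188 and chr5:33761132-33860177. The 3 clusters covered 54850, 58488 and 59690 bp, ranking 1 of 18776, 3 of 19995 and 3 of 19482 clusters of their lists. By span, which was 98927, 99123 and 99046 bp, the ranks were 7, 9 and 8. The first rank in MDA-MB-231 replicate 2 is the value by which the gene was chosen.

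The intron held peaks of opposite character. In MDA-MB-231 replicate 2, 5 of its peaks had a fold enrichment above the 90th percentile of the list and 6 lay below the 30th. In the Hs578T lists these numbers were 4 and 6, and 4 and 5. The widest region, centred 40905 bp downstream of the start site, was a single peak of 18207 bp in Hs578T replicate 1 and of 18142 bp in Hs578T replicate 2, and the same stretch was split in MDA-MB-231 replicate 2, where peaks covered 16809 bp. A width of 18207 bp ranked 97 among 46330 peaks and 18142 bp ranked 67 among 44920, and the widest single intron 2 peak of MDA-MB-231 replicate 2, at 12412 bp, ranked 181. The highest fold enrichment stood further in, 102562 bp from the start, at 21.6, 20.0 and 19.4 (widths 4758, 4177 and 4536 bp). Neighbouring regions at 75204 and 82824 bp reached 18.2, 19.9 and 16.2, and 15.7, 18.5 and 15.3. By contrast, the 4 regions between 110619 and 130497 bp stayed between 2.45 and 3.58 in all lists.

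**Figure D2:**
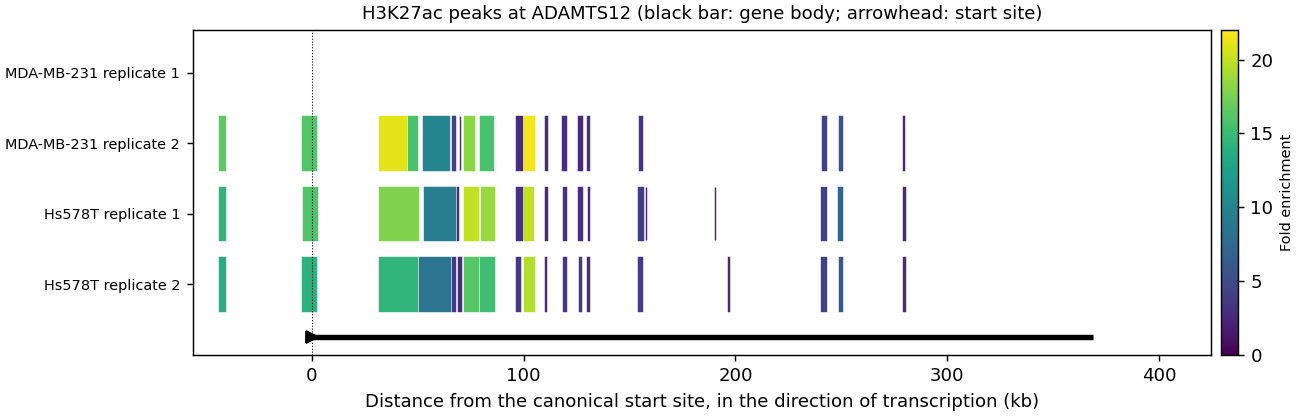
H3K27ac peaks at ADAMTS12 in each list against distance from the canonical start site (kb, in the direction of transcription), coloured by fold enrichment, with the gene body as a black bar. The promoter and the intron 2 cluster recur in the 3 large lists, with 13, 11 and 12 peaks in the intron, and MDA-MB-231 replicate 1 has none.

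All regions of intron 2 recurred in the 3 large lists, whereas outside it not every region did. Merged over lists, the whole window, with intron 2, held 20 regions. Of these, 18 were intronic and 17 were called in all 3 large lists. The 3 others, at 157776, 190275 and 196832 bp in intron 3, were 243 to 374 bp wide, were each called in 1 Hs578T list, and had fold enrichments of 2.32 to 2.61. A region 42224 bp upstream had a fold enrichment of 16.5, 14.4 and 13.7. It began 850 bp from the start of RXFP3, a relaxin receptor gene, and belongs to that promoter by position. Without it and the other peaks nearer to another gene, ADAMTS12 kept 62938, 67995 and 68874 bp.

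Letters of AP-1, the factor family downstream of TWEAK that the study examined, were sought in the strongest intronic regions of ADAMTS12, ADAMTS16 and ADAMTS6. For each of these strongest ADAMTS12 regions with matches, the match nearest its middle is printed with 30 bases either side. It is given on the gene's strand and 5′ to 3′, with the AP-1 letters in capitals, since these are the bases a factor would read there. The ADAMTS12 matches are at chr5:33850248-33850314, chr5:33810764-33810830 and chr5:33789065-33789131 (all hg38, minus strand, intron 2).
ADAMTS12, 41709 bp from the start: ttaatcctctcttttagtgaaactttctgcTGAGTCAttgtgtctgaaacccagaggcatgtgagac
ADAMTS12, 81193 bp from the start: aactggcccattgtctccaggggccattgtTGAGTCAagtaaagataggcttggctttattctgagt
ADAMTS12, 102892 bp from the start: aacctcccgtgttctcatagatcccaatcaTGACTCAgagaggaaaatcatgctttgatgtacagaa
Each of the 3 ADAMTS12 regions held 2 matches, while the strong ADAMTS12 region at 75204 bp and the strongest ADAMTS6 region held none. Merged over lists, those 3 regions were 18207, 6905 and 4758 bp wide, and none of their matches lay in the central 500 bp of its peak. Other ADAMTS12 regions held matches too, which are not printed. Over all 17 distal ADAMTS12 peaks of each large list, 3, 3 and 2 had the letters in the 500 bp around their middle. Per kb of distal peaks ADAMTS12 had 0.199, 0.181 and 0.181 matches in the large lists, against 0.473, 0.455 and 0.460 in the whole lists. The 20 bases on either side of the printed ADAMTS12 matches occurred once in the genome. The strongest ADAMTS16 region held 1 match, not printed, and the 20 bases after it occurred 132198 times. Whether any factor was bound at these letters was not measured.

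ADAMTS16 was the second most covered of the 10 genes. Its closest relative is ADAMTS18. The gene lies at chr5:5140330-5320304 on the plus strand (ENSG00000145536), with no other protein-coding start site in its window. Peaks covered 32182 bp in MDA-MB-231 replicate 2 (15 peaks), 25472 bp in Hs578T replicate 1 (14) and 22485 bp in Hs578T replicate 2 (12), the Hs578T mean being 23978.5 ± 2112 bp (SD, n = 2). The MDA-MB-231 list was the higher by 8203.5 bp, beyond the 2987 bp between the Hs578T replicates, and the order was the same within the gene body alone (24281, 18637 and 16230 bp). By covered bases the window ranked 498, 1322 and 1478, and by share of the window 3016, 4951 and 5132.

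The start of ADAMTS16 itself was unmarked. Its nearest peak began 4317, 4494 and 4430 bp inside the gene, in intron 3, and ended a stretch without any peak of 1823605, 1823677 and 1823588 bp that runs through the promoter. This peak was 3757, 4036 and 4363 bp wide with fold enrichments of 9.24, 7.04 and 5.99. The strongest region lay in intron 18, 131921 bp from the start, with widths of 3943, 3299 and 2101 bp and fold enrichments of 15.8, 15.0 and 14.9. A second one in the same intron, at 149063 bp, reached 10.5, 10.7 and 9.89. In all, 15 regions were found, 12 of them intronic. Of these 15, 11 were called in all 3 large lists, 3 (at 15237, 50710 and 52499 bp) only in MDA-MB-231 replicate 2, with widths of 416 to 858 bp, and 1 in that list and Hs578T replicate 1. From the second intron 18 region onward the nearest protein-coding start site was that of ICE1, so that 16399, 12410 and 9932 bp remained when only peaks nearest to ADAMTS16 were kept.

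ADAMTS6 and ADAMTS10 are a related pair known for their association with fibrillin microfibrils. ADAMTS6 lies at chr5:65148738-65481920 on the minus strand (ENSG00000049192), with 12965, 12201 and 15147 bp covered in MDA-MB-231 replicate 2, Hs578T replicate 1 and Hs578T replicate 2. The MDA-MB-231 value lay between the Hs578T ones. Beside the modest promoter peak, its acetylation stood near the 3′ end. Introns 20, 21 and 24 held 5 regions called in all large lists, and intron 20 the strongest, 283166 bp from the start, with widths of 3366, 2744 and 2832 bp and fold enrichments of 11.1, 12.2 and 10.7. Its longest intron, intron 7 with 117389 bp, held 1 peak of 769 bp in Hs578T replicate 2 and none in the other lists.

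ADAMTS10 had no peak that was nearer to its start than to that of another gene. It lies at chr19:8580240-8610735 on the minus strand (ENSG00000142303), and 7753, 10383 and 10673 bp of its window were covered, in each region nearest to the start of MYO1F or NFILZ. Its start site was 24360, 20505 and 24030 bp from a peak. Within the gene body only 1049, 936 and 1020 bp were covered, by a peak in intron 25. This was 664 bp from the start of the non-coding gene ENSG00000267986, which overlaps it. In the window, MDA-MB-231 replicate 2 was 2775 bp below the Hs578T mean of 10528 ± 205 bp (SD, n = 2), whereas in the gene body it had the most.

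The procollagen N-proteinases ADAMTS2 and ADAMTS14 remove the amino-terminal propeptides of fibrillar procollagens. ADAMTS2, at chr5:179110853-179345461 on the minus strand (ENSG00000087116), had no peak in 334609 bp of window. Its start site lay 204322, 153949 and 197400 bp from the nearest peak, and the stretch without a peak measured 489013, 438620 and 482194 bp. This zero depended on the edge of the window. A peak of 336 to 443 bp, with fold enrichments of 4.35, 5.56 and 4.25, ended 83, 63 and 186 bp outside it in the 3 large lists, nearest to the start of ZNF354C.

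ADAMTS14, at chr10:70672506-70762441 on the plus strand (ENSG00000138316), had 2514, 1892 and 981 bp covered in 3, 2 and 1 peaks. The nearest peaks were 1079, 7160 and 15303 bp from its start. The peak at 1079 bp, just outside the promoter as defined here, was 681 bp wide in intron 1, had a fold enrichment of 2.56 and was called in MDA-MB-231 replicate 2 alone. It came within 1 kb of an alternative start at position 70672803. The region 15793 bp upstream was the one called in all 3 lists, with fold enrichments of 4.51, 4.44 and 4.52. By midpoint this region and the one 7632 bp upstream lay inside another gene, PALD1, although the nearest protein-coding start was that of ADAMTS14.

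Of the proteoglycan-degrading members, ADAMTS1, ADAMTS4, ADAMTS5 and ADAMTS9, none carried a promoter peak. ADAMTS4 and ADAMTS5 are the aggrecanases known from cartilage, and ADAMTS1 and ADAMTS9 cleave versican among other substrates. ADAMTS1 (chr21:26835755-26845409, minus strand, ENSG00000154734) and ADAMTS5 (chr21:26917922-26967088, minus strand, ENSG00000154736) are neighbours whose windows overlap, and both sat in 1 stretch without a peak, of 2036990 bp in MDA-MB-231 replicate 2, 2241500 bp in Hs578T replicate 1 and 2048935 bp in Hs578T replicate 2. The nearest peak was 454679, 454622 and 439150 bp from the start of ADAMTS1 and 576358, 576301 and 560829 bp from that of ADAMTS5. These are not separate observations, since a single stretch accounts for both genes.

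ADAMTS4 differed from them in its surroundings. It is a short gene at chr1:161184302-161199054 on the minus strand (ENSG00000158859), among 9 other protein-coding start sites, and its window had 10976, 10879 and 9929 bp covered. None of this was in the gene body, and no peak was nearer to ADAMTS4 than to another gene. A peak over the DEDD promoter at the window's edge had fold enrichments of 17.8, 15.0 and 13.4, and in Hs578T replicate 2 the peak over the UFC1 promoter was higher, at 14.4.

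ADAMTS9, at chr3:64515654-64688000 on the minus strand (ENSG00000163638), had a single peak in 272347 bp of window. It was 903, 794 and 822 bp wide in the 3 large lists, with fold enrichments of 5.69, 4.24 and 3.24, at percentiles 50.8, 39.7 and 20.8. The peak began 1085, 1129 and 1137 bp from the canonical start, in intron 2, which again is just outside 1 kb. It lay within 1 kb of an alternative start 321 bp downstream, and 1078 bp from the start of ADAMTS9-AS2, an antisense RNA of the same locus. Acetylation cannot be assigned to a strand, so the 2 genes cannot be told apart here. With the starts of all basic transcripts, 4, 3 and 3 genes had a promoter peak in place of 2 each. ADAMTS9 was added in every large list and ADAMTS14 in MDA-MB-231 replicate 2. The share of all protein-coding genes was not counted with these starts, so the rise cannot be set against that of the genome.

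**Figure D3:**
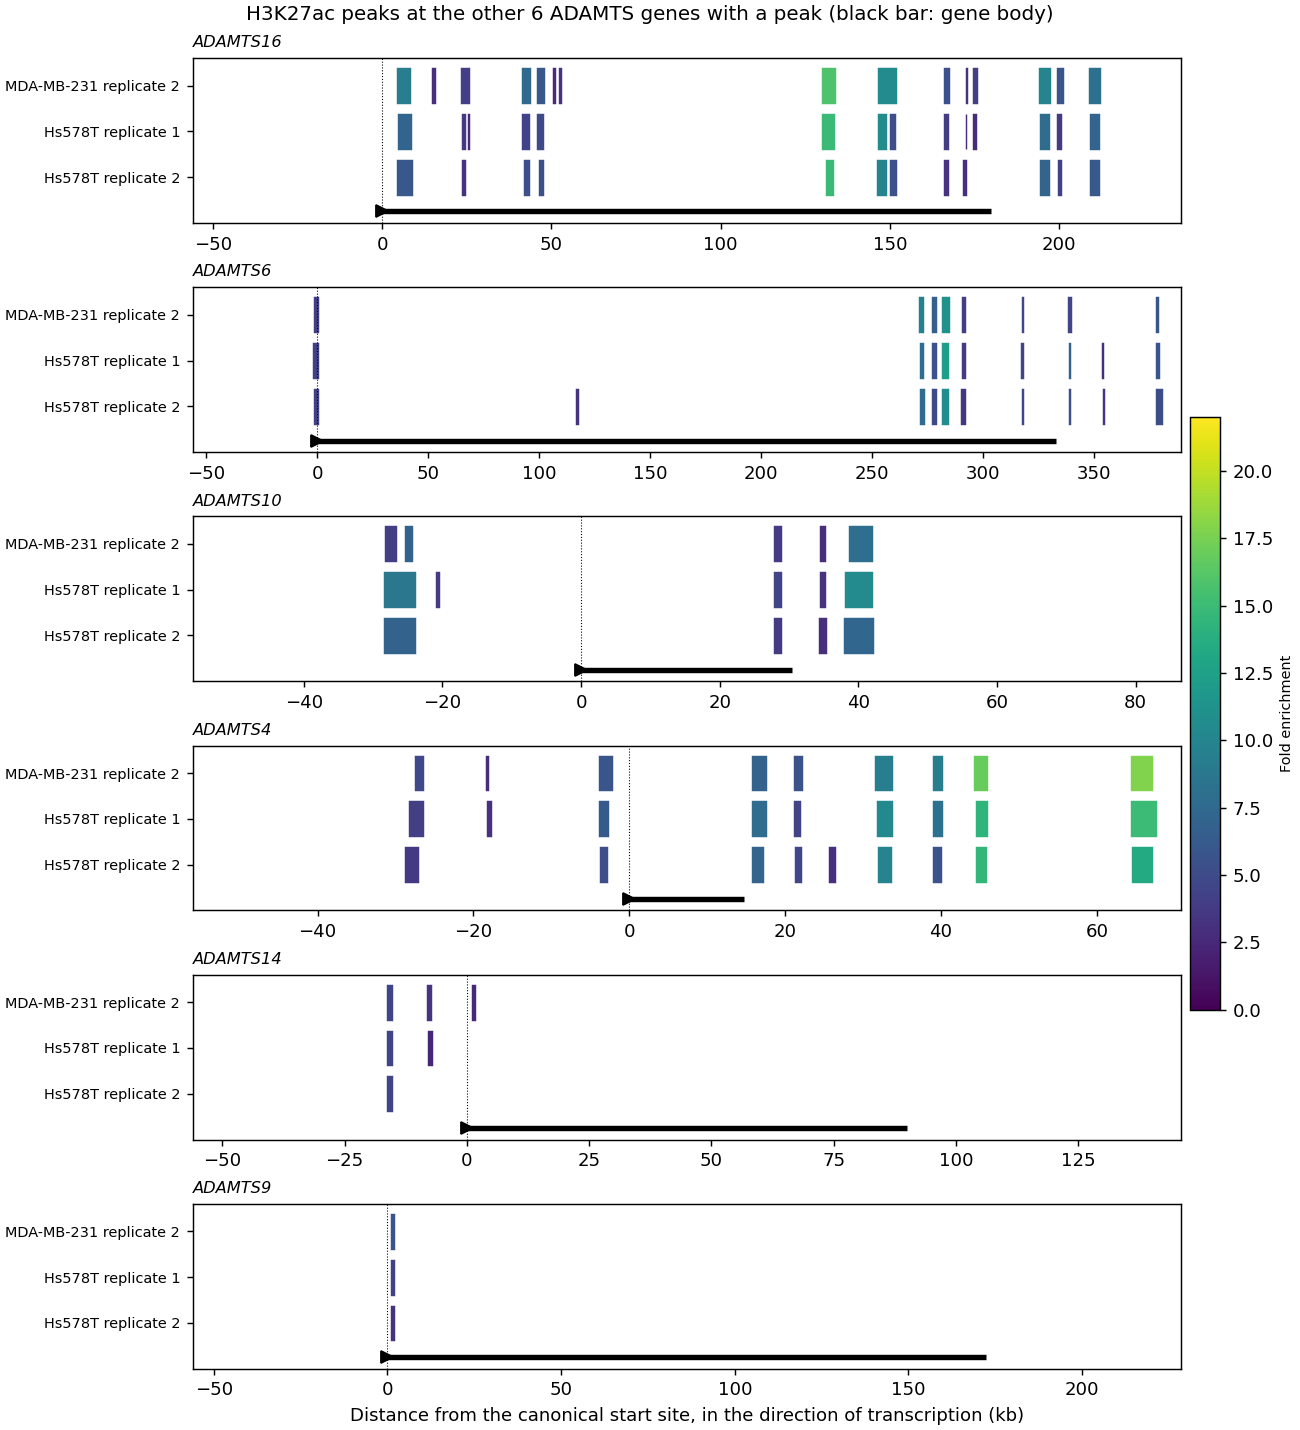
H3K27ac peaks at the other 6 ADAMTS genes with a peak in the 3 large lists, against distance from the canonical start site (kb, in the direction of transcription), coloured by fold enrichment, with gene bodies as black bars. ADAMTS16 and ADAMTS6 hold most of their peaks inside the gene far from the start, ADAMTS10 and ADAMTS4 outside it, and ADAMTS9 a single peak 1085 to 1137 bp from its start.

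Taking the 7 covered windows as a whole, 64 regions were found, of which 50 were called in all 3 large lists, 4 in 2 lists and 10 in 1. By midpoint 39 lay in introns, 15 downstream, 8 upstream, 2 at promoters and none in an exon, and 37 of the 64 were nearer to the ADAMTS gene than to another protein-coding start. The 10 single-list regions were divided among the lists, with 4 in MDA-MB-231 replicate 2, 3 in Hs578T replicate 1 and 3 in Hs578T replicate 2. The matching shares over all regions of the large lists were not counted. These counts, and those of single genes above, therefore do not show whether the sharing or position of the regions is unusual. Over the windows the Jaccard index was 0.792 and 0.733 between MDA-MB-231 replicate 2 and the Hs578T lists and 0.813 between these. It was 0.836, 0.836 and 0.861 at ADAMTS12 and 0.744, 0.606 and 0.764 at ADAMTS16.

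The lines were then compared gene by gene. With both MDA-MB-231 lists taken into account, the covered bases of 2 genes, ADAMTS10 and ADAMTS12, lay outside the Hs578T range on the same side, both lower, as did those of 40.1% of all genes, and no gene of the 10 lay higher in both (0.00501% of all genes). This count includes the list without any peak in the windows, so no gene of the 10 could have lain higher in both. For the same reason, lower in both only repeats that MDA-MB-231 replicate 2 was lower. Without it, MDA-MB-231 replicate 2 lay outside the Hs578T range at 6 of the 10 genes, beside 59.0% of all genes. It was above both at ADAMTS4, 9, 14 and 16 (18.9% of all genes) and below both at ADAMTS10 and ADAMTS12 (40.1%). Regardless of direction, the share of the 10 genes that differed was thus near that of the genome. By direction it was not, with a larger share above both and a smaller share below both than among all genes. With single lists on one side no difference between the lines could be tested.

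The regions called in all 3 large lists were compared between the labelled lines one by one. Of the 11 ADAMTS16 regions called in all large lists, 7 were wider in MDA-MB-231 replicate 2 than in both Hs578T lists and 1 was narrower, and 6 ranked higher in fold enrichment within their list and 2 lower. At ADAMTS12, 4 of 17 regions (23.5%) were wider and 7 (41.2%) narrower, and 3 (17.6%) ranked higher and 10 (58.8%) lower. At ADAMTS10 all 4 shared regions ranked lower. Over all 37832 regions called in the 3 large lists, 27.3% were wider and 42.1% narrower, and 30.9% ranked higher and 48.2% lower. The width shares at ADAMTS12 were thus near those of all regions. Regions of a gene are neighbours in the same library and were not counted as replicates. Across the 50 shared regions of the ADAMTS windows, fold enrichment was ordered alike in the lists, with Spearman's rho of 0.95 and 0.93 between MDA-MB-231 replicate 2 and the Hs578T lists and 0.97 between these, compared with 0.93, 0.91 and 0.96 over all regions. These points share libraries and are given as a description.

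**Figure D4:**
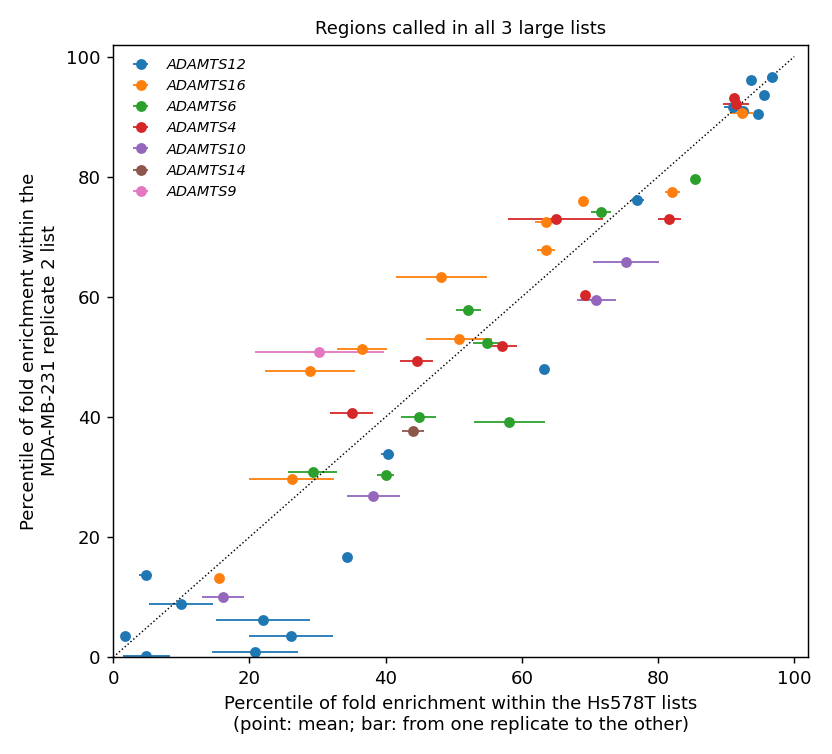
Percentile of fold enrichment within the MDA-MB-231 replicate 2 list against that within the Hs578T lists for the 50 regions of the ADAMTS windows called in all 3 large lists, with the Hs578T mean as a point and a bar from one replicate to the other. Of the 11 ADAMTS16 regions 6 lie above both Hs578T lists, and of the 17 ADAMTS12 regions 10 lie below both.

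AP-1 letters were found in a smaller share of the peaks of the windows than of the lists they come from. Of the distal peaks (over 2.5 kb from every start site) in the windows, 16 of 44 in MDA-MB-231 replicate 2, or 36.4% (95% Wilson interval 23.8 to 51.1%), held TGACTCA on either strand. The shares were 16 of 43, or 37.2% (24.4 to 52.1%), in Hs578T replicate 1 and 17 of 42, or 40.5% (27.04 to 55.5%), in Hs578T replicate 2. In the whole lists they were 51.9%, 51.1% and 50.3%. The intervals cover counting error only, neighbouring peaks are not independent, and for Hs578T replicate 2 the whole-list share lies within the interval, as it does for Hs578T replicate 1. Among the strongest 50% of peaks by score the windows had 11 of 20, 9 of 20 and 9 of 21 distal peaks with the letters, the first being 55.0%, whereas the whole lists had 67.8%, 67.5% and 66.7%. Because peak widths differ, matches per kb were counted too, giving 0.225, 0.222 and 0.231 in the windows against 0.473, 0.455 and 0.460 in the whole lists.

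The matches were spread unevenly over the genes. ADAMTS12 had AP-1 letters in 7 of 17 distal peaks in every large list, with 12 matches in each. ADAMTS16 had them in 7 of 15, 7 of 14 and 6 of 12. ADAMTS6 had them in 0 of 6, 0 of 7 and 2 of 8. The TEAD letters GGAATG were in 77.3%, 74.4% and 73.8% of the distal peaks, against 58.4%, 58.4% and 58.1% of the whole lists, and per kb the values were 0.810, 0.756 and 0.756 against 0.723, 0.718 and 0.728. The NF-κB consensus was in 15.9%, 14.0% and 14.3%, against 17.2%, 17.2% and 16.4%. Per kb it was rarer in the windows, at 0.081, 0.080 and 0.089 against 0.141, 0.138 and 0.136.

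Other genes of the pathway were read in the same way. Of 9 further ADAMTS genes, ADAMTS3, the third procollagen N-proteinase, and ADAMTS15 had a promoter peak in all 3 large lists. ADAMTS7, the closest relative of ADAMTS12, had one in Hs578T replicate 1 alone, with a width of 877 bp and a fold enrichment of 2.62. The promoters of ADAMTS8, 13, 17, 18, 19 and 20 were unmarked in all lists. With the 10 genes above, 4 of 19 ADAMTS genes were thus marked in every large list, beside 55.6% of all genes. Among 7 ADAMTS-like genes, which lack the protease domain, ADAMTSL1, ADAMTSL4, ADAMTSL5 and THSD4 were marked in all 3, PAPLN in Hs578T replicate 1, and ADAMTSL2 and ADAMTSL3 in none.

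**Figure D5:**
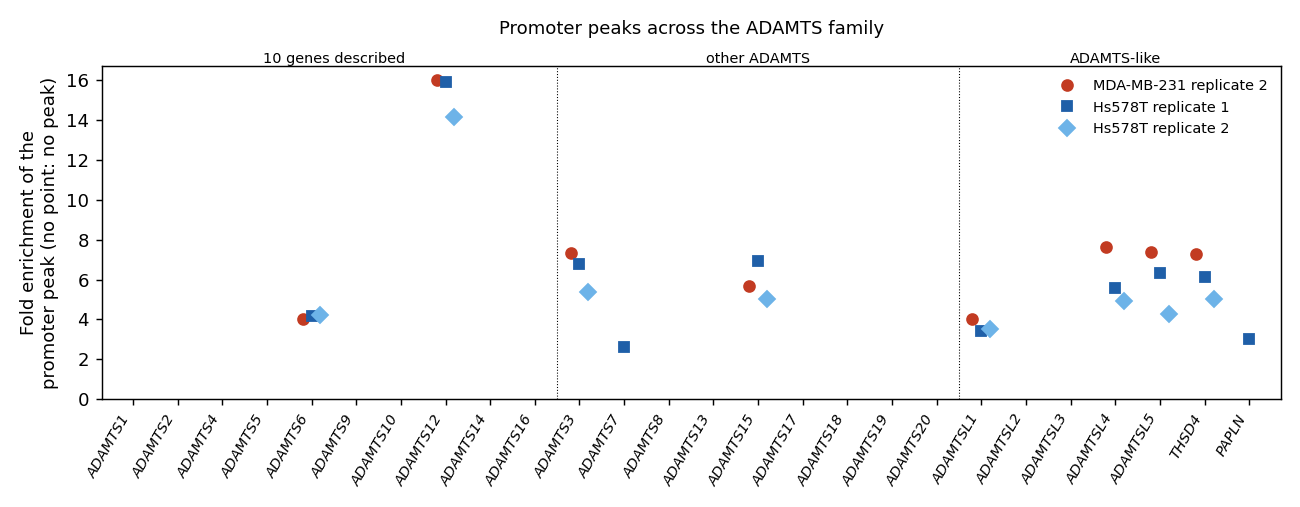
Fold enrichment of the promoter peak in the 3 large lists at the 10 ADAMTS genes described, the 9 other ADAMTS genes and the 7 ADAMTS-like genes, with no point where no peak lay within 1 kb of the canonical start. The ADAMTS12 values, from 14.1 to 16.0, are the highest shown, and 2 of 10, 2 of 9 and 4 of 7 genes carry a peak in all 3 lists.

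Substrates and regulators completed the comparison. Of 13 substrate genes, COL1A1, FBN1, FN1 and THBS1 carried a promoter peak in all 3 large lists and VCAN in all but Hs578T replicate 2, in which the VCAN peak began beyond 1 kb from the start site. The promoters of ACAN, BCAN, NCAN, COMP, COL1A2, COL3A1, COL2A1 and FBN2 were unmarked. COMP, which encodes the known substrate of ADAMTS12, had 1383, 1513 and 1129 bp covered in its window. Of 10 inhibitors, activators and clearance factors, TIMP1, TIMP2, TIMP4, FURIN, LRP1 and SDC4 were marked in all 3, and TIMP3, which encodes the main inhibitor of the aggrecanases, was marked in MDA-MB-231 replicate 2 and Hs578T replicate 1. PCSK5, PCSK6 and A2M were not marked. MDA-MB-231 replicate 1 marked none of these promoters.

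Genes with a like pattern of covered bases were ranked by the summed absolute log2 ratio to ADAMTS12 over the 3 large lists, among 17151 genes. The nearest were IQCJ-SCHIP1 (73179, 77098 and 75360 bp; summed ratio 0.11), ENSG00000273269 on chromosome 2 (66683, 75669 and 73611 bp; 0.11) and TNS4 (70716, 74205 and 71598 bp; 0.12).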

How the data were processed

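Reads were trimmed (Trimmomatic) and aligned to hg38 (Bowtie2) by the authors, who ran MACS2 on every library with its input and took out blacklisted regions. Tool versions are not given in the sources used here. Each deposited list has 9 columns, as in broad-peak output of MACS2. The deposited columns used were positions, a score (10 times −log10 of the q-value), a fold enrichment (a ratio over local background) and −log10 p-values and q-values. The largest deposited q-value per list was between 0.0827 and 0.0994. Fold enrichment is relative to the background of its own library, so only its rank was compared between lists. Peaks called per library move with depth, which is unknown.

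Start sites were those of canonical transcripts in GENCODE release 44, and a peak counted with an overlap of 1 bp. Covered bases, overlaps and motif counts were computed with Python 3.11.15 (numpy 2.4.6, pandas 2.3.3, scipy 1.17.1). The counting was tested on simulated intervals. Each list was assigned to its line by its label and values are given per list, or as mean ± SD over 2 replicates. The genes named were all 10 genes with their promoter peak and their widest and strongest peaks, the counts over lists of related genes, and the 3 genes most like ADAMTS12. The genes and lists were chosen with earlier results of these data known. Other peak cut-offs, windows, start sites and assignments, and leaving out each replicate, were tried.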

Additional observations from a re-analysis of the deposited data

How the results depend on the processing

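No paired analysis was possible because the results come from no test. Of 172 values recomputed for 21 results, 108 were counted as unchanged and 64 as moved. The limit was 1 SD, or 1.5 times for a count. The MDA-MB-231 AP-1 share came from 1 list and has no SD. Part of the 108 could not have moved. In MDA-MB-231 the SD of covered bases in all windows, 96871 bp, exceeds their mean of 68498 bp. Leaving out either replicate gave 136996 or 0 bp, and both were counted as unchanged. ADAMTS1 and ADAMTS5 had 0 bp in Hs578T at every setting. The 108 therefore do not show that the results are stable. The cause was not tested beyond the construction of each alternative. Leaving out MDA-MB-231 replicate 1 or 2 turned the mean of 1 marked promoter in that line into 2 or 0, and the mean of 3.5 covered windows into 7 or 0. Members outside the Hs578T range numbered 2, and from 2 to 7 with a replicate left out: 6 without MDA-MB-231 replicate 1, 7 without MDA-MB-231 replicate 2. Those 7 are simply the members with a peak in the Hs578T lists, because MDA-MB-231 replicate 1 had none in the windows. The strongest 50% of peaks gave 0.5 marked promoters for MDA-MB-231 and 1 for Hs578T (the ADAMTS6 peak being lost). For MDA-MB-231 the starts of all basic transcripts gave 2 and promoters of 2.5 kb gave 2.5. Shares of marked promoters over all genes were not counted at these settings. The gene body alone, or peaks nearest to the member alone, gave 1 member outside the range each. Hs578T covered bases, 136325 ± 810 bp in all windows and 75496 bp at ADAMTS12, became 103685 and 60835 with the strongest 50%, 138107 and 76833.5 with peaks merged within 1 kb, 110727 and 72900 with 10 kb either side, 96881.5 and 68626 in the gene body, 166527.5 and 80913 with 100 kb, and 93704 and 68434.5 for the nearest peaks alone. With equal numbers of peaks per list they were 134488 and 74047.5. The AP-1 share, 36.4% for MDA-MB-231 and 38.8% for Hs578T, became 55.0% and 43.9% with the strongest 50%, and 11.4% and 16.5% in the central 500 bp of each peak, where whole lists had 33.6%, 32.3% and 32.1%. For Hs578T it was 41.2% with equal numbers, 34.3% with 10 kb, 34.9% in gene bodies and 41.9% for the nearest peaks.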
